A study of Mus musculus with 24 samples.

Results

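The interferon-inducible GTPases described here were 10 genes of the count table, of 55401 gene rows in all. They were 6 guanylate-binding proteins, Gbp2, Gbp3, Gbp4, Gbp5, Gbp6 and Gbp7, and 4 immunity-related GTPases, Irgm1, Irgm2, Igtp and Iigp1. They were chosen by name, as rows whose Ensembl identifier carried these symbols in the GENCODE M21 annotation, and each symbol matched 1 row. RNA sequencing of poly(A) RNA gave 1 count per gene in each of 24 tumors grown from TC2Ras, a line of mouse prostate cancer cells (TRAMP-C2 with activated H-Ras), in male C57/BL6 mice of 8 to 10 weeks. The study asked what interleukin-27 (IL-27) delivered as a gene, the kinase inhibitor cabozantinib (cabo) and their combination did to tumors in bone.

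Interferon-gamma is released mainly by T cells and NK cells and acts through its receptor and the Janus kinases to switch on a set of defence genes. The guanylate-binding proteins and the immunity-related GTPases are among the most strongly induced of them. In infected cells they assemble on the vacuoles of bacteria and parasites and help to break them open, and in tumors their transcripts are widely read as a trace of interferon signaling. Many of them also respond to type I interferons and, in several cell types, to IL-27 itself.

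The subcutaneous (SC) tumors were harvested 1 week after 300000 TC2Ras cells were placed in each flank, and received either an empty vector (control, n = 2) or an IL-27 vector (n = 2), with no cabo. The intratibial tumors grew from 100000 TC2Ras-Luc cells placed in each tibia, and all of those mice received a plasmid, 10 µg per muscle, delivered into skeletal muscle by sonoporation, plus the oral vehicle PVP with or without cabo at 30 mg/kg a day. The 4 treatments were empty vector with vehicle (control), IL-27 vector with vehicle (IL-27), empty vector with cabo (cabo) and IL-27 vector with cabo (IL-27+cabo). Intratibial tumors were taken on day 14 (D14, n = 3 for each treatment) or when a mouse reached its endpoint at the end of the study (EOS, n = 2 for each treatment), so the day of an EOS tumor differed between mice and was not given in the labels. Oral dosing stopped at 14 days, so EOS tumors were taken after cabo or vehicle had ended. The vector was given to muscle and not to the tumor, each line is a single cultured line, and the mice kept their own immune cells. SC and intratibial tumors also differed in site, days of growth, number of cells, the variant of the line and the prefix of their sample labels, which cannot be told apart.

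Total counts per tumor ran from 63729005 to 83782258, so that sampling error was small beside the differences between tumors. Levels are given as CPM, the counts of a gene scaled to library size with TMM, an adjustment for differences in RNA makeup between libraries. The keratin genes Krt8 and Krt18, markers of tumor epithelium, had counts in every tumor. The D14 IL-27+cabo tumor of mouse 20 stood apart, with a correlation of 0.912 to each of its group mates, while every other pair within a group reached at least 0.954. Skeletal muscle markers ranged from 2.88 CPM in an SC control tumor to 4617 CPM in the tumor of mouse 20, and their values in other groups are given beside the results. In whole tumors, fewer cells of a type and less RNA per cell cannot be told apart.

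In the mouse genome (GRCm38) most of the 10 genes lay next to another of the 10, while Irgm1 and Iigp1 lay apart from the other members. Gbp5, Gbp7, Gbp3 and Gbp2 stood in a row on the plus strand of chromosome 3, from Gbp5 at chr3:142493978-142522344 through Gbp7 at chr3:142530342-142550149 and Gbp3 at chr3:142560026-142573209 to Gbp2 at chr3:142620602-142638008. Gbp4 at chr5:105115767-105139586 and Gbp6 at chr5:105270702-105293698 lay on the minus strand of chromosome 5. Irgm1 was at chr11:48861968-48871683 on the minus strand. Igtp at chr11:58199556-58207591 and Irgm2 at chr11:58199618-58222782 shared 162 exonic bases on the plus strand. Genes of these families are known to resemble their relatives in sequence, and Gbp6 shared 29% of its exonic bases with the gene model Gm43302, so reads could have been split between copies and single levels are uncertain to that extent.

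The stretches just before the transcription start are shown because they hold the sites through which interferons are known to act. An interferon-stimulated response element (ISRE) was searched as GAAANNGAAA and a gamma-activated site (GAS) as TTCNNNGAA, on both strands, in the 250 bases before the RefSeq start (GRCm38). The 110 bases before the start of 4 genes follow, on the plus strand, with matches in capitals. In Gbp3 the 2 ISRE matches overlap, and 18 of the bases lie in an annotated exon.
Gbp7 (chr3:142530226-142530335): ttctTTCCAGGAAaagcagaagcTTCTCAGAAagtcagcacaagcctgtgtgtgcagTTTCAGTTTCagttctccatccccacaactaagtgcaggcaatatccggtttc
Gbp3 (chr3:142559934-142560043): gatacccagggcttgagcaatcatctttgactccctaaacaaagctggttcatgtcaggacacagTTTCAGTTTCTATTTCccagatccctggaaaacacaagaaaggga
Igtp (chr11:58199446-58199555): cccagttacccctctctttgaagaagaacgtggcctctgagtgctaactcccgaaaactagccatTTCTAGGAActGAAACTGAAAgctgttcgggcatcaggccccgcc
Irgm2 (chr11:58214867-58214976): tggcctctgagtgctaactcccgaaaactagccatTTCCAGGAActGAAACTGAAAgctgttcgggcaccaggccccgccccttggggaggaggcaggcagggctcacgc
In Gbp7, 2 GAS matches preceded an ISRE match that began 53 bases before the start. Igtp and Irgm2 carried a GAS match followed, 2 bases on, by an ISRE match, and 98 of 100 bases were identical between their promoters over the best ungapped stretch.

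RefSeq promoters were at hand for 7 of the 10 genes, with 8 promoters in all because Gbp3 had 2 starts. An ISRE match lay in 7 of the 8, 1 each for Gbp2, Gbp3, Gbp5, Gbp7, Irgm1, Irgm2 and Igtp, compared with 2.98% of 32851 mouse promoters. A GAS match was present in 4 of the 8 (Gbp5, Gbp7, Igtp and Irgm2), compared with 7.02% of all promoters, and the same 4 held both motifs, compared with 0.332%. A match describes letters in a window and is not a measured binding site.

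Per length of exon, Gbp2, a guanylate-binding protein that coats pathogen vacuoles, had the highest median level over the 24 tumors, 13.8 CPM per kb. Gbp3 (7.99 CPM per kb), Igtp (7.67 CPM per kb) and Irgm1 (5.67 CPM per kb) followed. Gbp7 (4.07 CPM per kb), Irgm2 (4.03 CPM per kb) and Iigp1 (2.79 CPM per kb) came next, and Gbp6 (1.11 CPM per kb), Gbp5 (0.979 CPM per kb) and Gbp4 (0.703 CPM per kb) were lowest. Neighbors in this order overlapped widely, since each gene varied far more between tumors than between ranks. The highest tumor exceeded the lowest by 132-fold for Iigp1, 40.6-fold for Gbp6, 40.2-fold for Gbp2 and 11.4-fold for Irgm1, the steadiest of the 10 genes.

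The 10 genes varied together from tumor to tumor. Over the 20 intratibial tumors, the Pearson correlation of log2 CPM between 2 members had a median of 0.964 over 45 pairs and ran from 0.849 for Gbp4 and Igtp to 0.984 for Gbp5 and Irgm2. When each tumor was taken as its deviation from its group mean, the median was still 0.921. These tumors share treatment groups and libraries, so the values are descriptions and carry no test. Within a group, a single tumor was often the highest for every member. Mouse 25 among D14 cabo tumors, mouse 22 among D14 IL-27+cabo tumors, mouse 8 among D14 IL-27 tumors and mouse 28 among EOS IL-27+cabo tumors were highest in all 10 genes, and mice 7, 27, 6, 16 and 23 were lowest in all 10 genes of their groups.

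**Figure D1:**
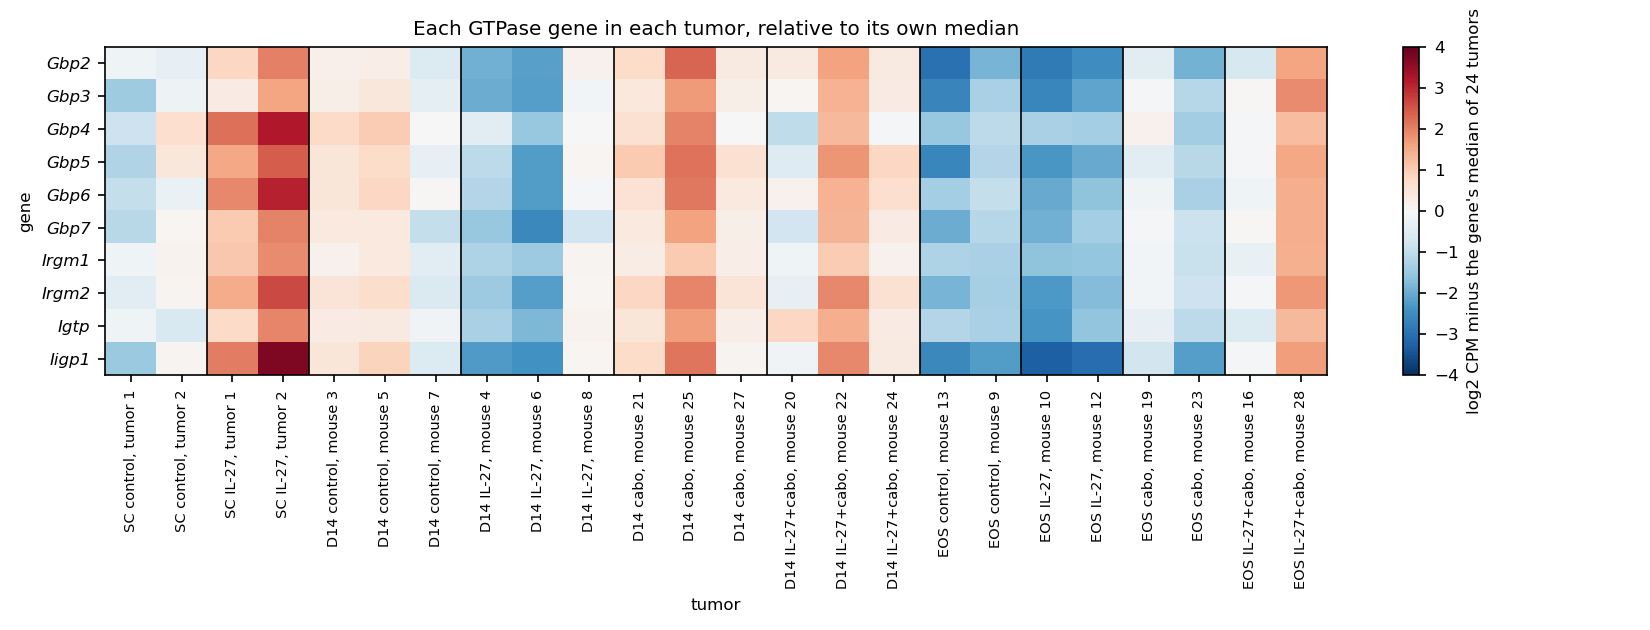
Log2 CPM of each GTPase gene (rows) in each of 24 tumors (columns), minus that gene's median over the tumors, with red for higher and blue for lower and black lines between groups. The columns are nearly uniform in color: SC IL-27, mouse 25, mouse 22 and mouse 28 are red throughout, and the EOS control and EOS IL-27 tumors and mice 4 and 6 are blue.

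Outside the gene families and pathway lists, the genes most like the mean of the 10 over the 20 intratibial tumors were Cfb, which encodes complement factor B (Pearson r = 0.979), Ifi203, an interferon-induced DNA sensor family member (r = 0.975), Cmpk2, a mitochondrial nucleotide kinase (r = 0.975), and Oasl2, of the oligoadenylate synthetase family (r = 0.971).

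In the SC tumors, all 10 GTPase genes were higher with IL-27 than with the empty vector. Iigp1, an effector GTPase that is loaded onto parasite vacuoles, was 5.77 and 17.4 CPM in the control tumors and 67.7 and 217 CPM in the IL-27 tumors. Gbp6 was 3.42 and 5.52 CPM in control tumors and 24.9 and 55.7 CPM in IL-27 tumors. Irgm1, a regulator that keeps the effector GTPases off the cell's own membranes, was 29.4 and 36.0 CPM in control tumors and 69.3 and 123 CPM in IL-27 tumors. For each of the 10 genes both IL-27 tumors lay above both control tumors, a pattern seen for 31.7% of the 19360 genes tested in that direction.

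The fold differences ran from 2.95-fold for Irgm1 to 12.2-fold for Iigp1. In edgeR's quasi-likelihood test with Benjamini-Hochberg adjustment over all genes, 8 of the 10 rose, against 3.52% of all genes called higher. Among the guanylate-binding proteins, Gbp6 rose by a log2 fold change of 3.17 ± 0.52 (SE, adjusted p = 0.0067), Gbp4 by 2.70 ± 0.61, Gbp7 by 2.00 ± 0.51 and Gbp2 by 1.78 ± 0.43. Among the immunity-related GTPases, Iigp1 rose by a log2 fold change of 3.61 ± 0.74 (adjusted p = 0.016), Irgm2 by 2.32 ± 0.47, Igtp by 1.86 ± 0.46 and Irgm1 by 1.56 ± 0.38. Gbp5, known for promoting inflammasome assembly, had a log2 fold change of 2.20 ± 0.63 (adjusted p = 0.051) and Gbp3 of 1.77 ± 0.56 (adjusted p = 0.070), which did not pass. The median log2 fold change of the 10 genes was 2.10, and that of all genes was 0.04.

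**Figure D2:**
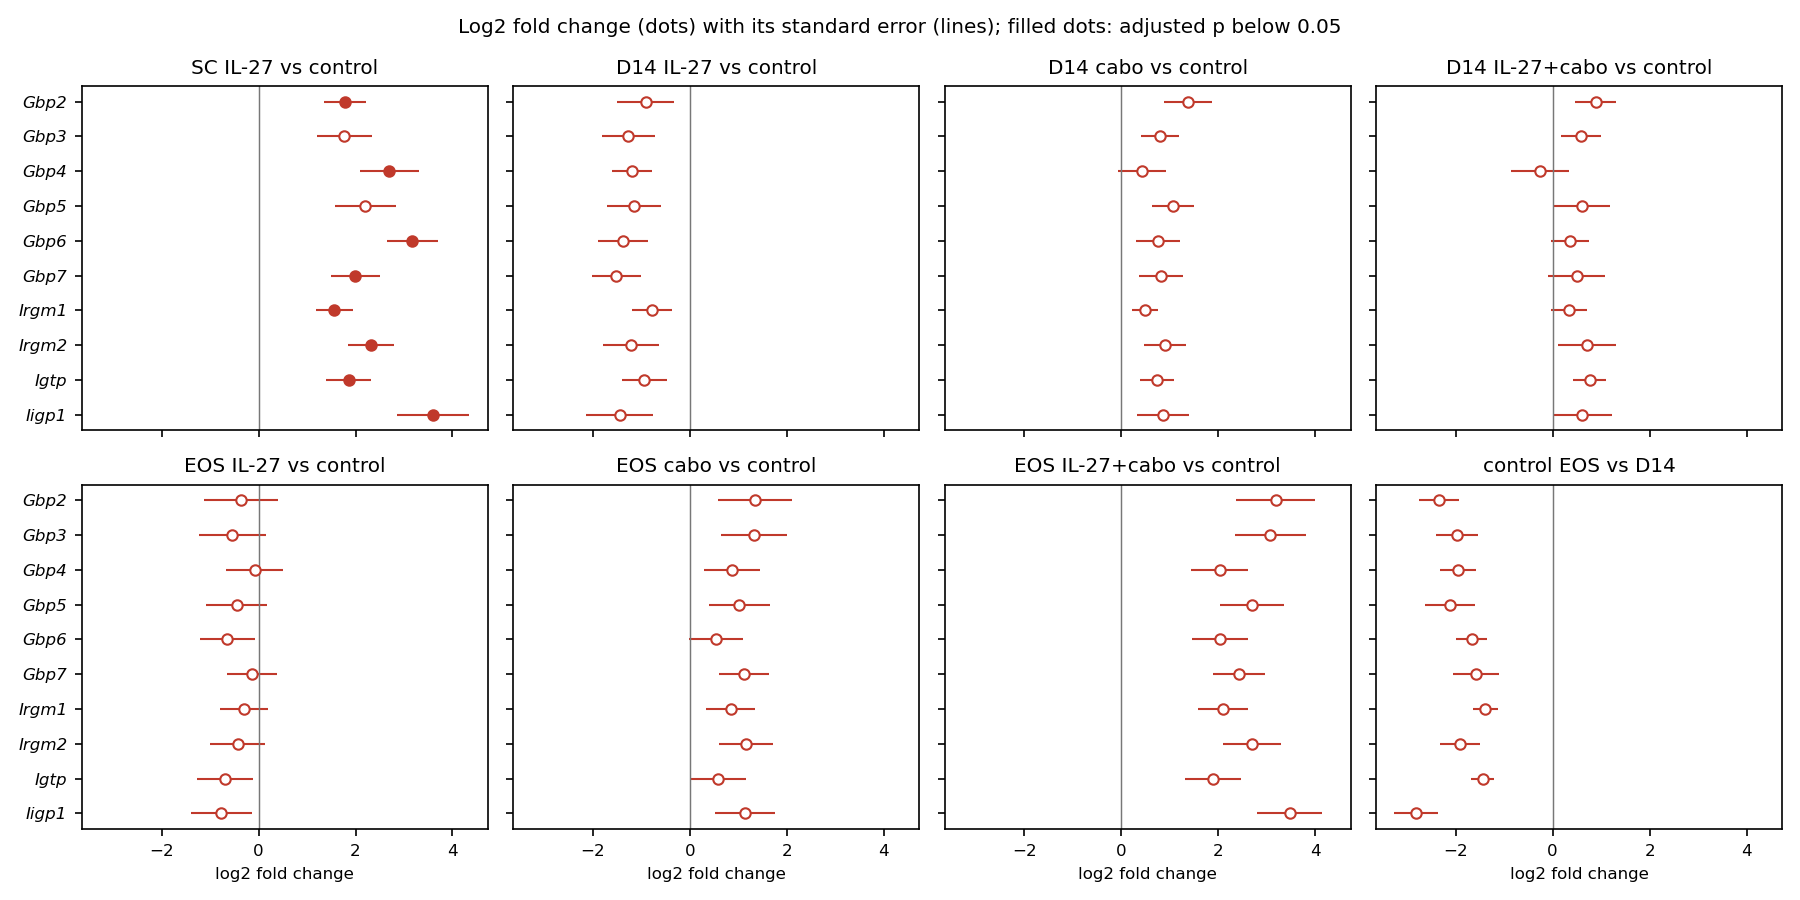
Log2 fold change of each GTPase gene (dots) with its standard error (lines) in 8 comparisons, with filled dots for adjusted p below 0.05. Filled dots appear only in the SC panel, where 8 of 10 genes are filled, and the EOS IL-27+cabo panel has values of similar size with open dots.

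The SC comparison had 2 tumors a side. Fold changes depended on the GC content of transcripts in these libraries: the 9051 genes with the GC content of the members, 39.3 to 49.5%, had a median log2 fold change of 0.56 and 5.21% of them were called higher. With the trend over GC content and length removed, 5 of the 10 members (Gbp4, Gbp6, Irgm2, Igtp and Iigp1) were called, against 2.68% of all genes. Log2 fold changes of all 10 then ran from 1.04 for Irgm1, which was not called, to 2.64 for Iigp1. Without SC control tumor 1, no member was called (0.499% of all genes were, higher) and 9 were higher at an unadjusted p under 0.05 (9.08% of genes). Without SC IL-27 tumor 2, 3 were called (1.77% of genes), with a median log2 fold change of 1.58.

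For genes outside the 10 members, SC values are given without GC correction and may carry that trend. Other genes of the same families moved alongside in the SC tumors. Of 14, all were higher with IL-27 and 8 passed the test, with a median log2 fold change of 2.74. They were Tgtp2 (log2 fold change 3.25) and Tgtp1 (2.97), Ifi47 (2.48), Gm12250 (2.91) and Gm4951 (3.71) of the immunity-related GTPases, Gvin1 (2.76), a very large interferon-inducible GTPase, and Gbp8 (1.86) and Gbp2b. Gbp2b had no count in either control tumor and 70 and 378 counts in the IL-27 tumors, which was 72.5-fold higher when 3 counts per control tumor were allowed. Multiples of 4 made up 32.3% to 34.2% of low counts in the SC tumors, so 3 counts may be too low a floor. Of 13 genes best known as targets of type I interferon, 7 rose, namely Mx1 (log2 fold change 2.76), Ifi44 (2.64), Oas2 (2.55), Rsad2 (2.25), Ifit3 (2.04), Ifit2 (1.71) and Ifit1 (1.61). In the same list Oasl1 fell by a log2 fold change of 2.15 and Isg15 fell by 1.81.

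Without GC correction, the interferon-gamma pathway itself was split in the SC tumors. The ligand Ifng had 0 and 4 counts in the control tumors and 53 and 133 counts in the IL-27 tumors, and it passed the test (adjusted p = 0.038, edgeR). Cxcl9, a chemokine for T cells, rose by a log2 fold change of 2.72 ± 0.46. The receptor chain Ifngr2 fell by 1.56 on the log2 scale, Psmb10, a subunit of the immunoproteasome, fell by 4.75, and Wars, a tRNA synthetase, fell by 1.37. The receptor chain Ifngr1 (log2 fold change 0.13 ± 0.31), the kinases Jak1 (0.93 ± 0.36) and Jak2 (1.23 ± 0.37) and the transcription factor Irf1 (0.40 ± 0.33) did not pass. In all, 2 of 23 tested genes of this list rose and 3 fell, with a median log2 fold change of 0.13. Among 9 genes that work with the GTPases in autophagy and inflammasomes, Aim2, a DNA sensor, rose by a log2 fold change of 1.93 and Gsdmd, which forms membrane pores, fell by 1.34.

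Markers of other cells also differed between these SC groups, again without GC correction. The summed level of 12 skeletal muscle markers was 371 to 1011 CPM in IL-27 tumors and 2.88 to 12.4 CPM in controls, and 11 of the 12 were called higher. The sum of 8 T cell markers was 30.4 to 35.5 CPM against 9.95 to 10.2 CPM, with 3 of 8 called higher. Markers of marrow myeloid cells summed to 37.7 to 38.1 CPM against 0.88 to 1.97 CPM, with 5 of the 6 tested called higher. Of 8 macrophage markers 5 were called lower, while Mrc1 (log2 fold change 1.53 ± 0.46) and Adgre1 (0.93 ± 0.35) had values above 0 and did not pass. The epithelial keratins Krt19 and Krt8 were called lower, with log2 fold changes of -4.70 and -3.81, as was the osteoblast gene Col1a1 (-2.06). The 8 endothelial markers were split, with Tie1 and Cldn5 called lower (-3.16 and -2.84), while Tek, Emcn, Pecam1 and Kdr (2.00, 1.53, 1.25 and 1.15) were higher and Vwf (-1.79) lower, each without overlap, and did not pass. Their sum was 350 to 785 CPM with IL-27 and 307 to 361 CPM in controls. Of 6 NK cell markers Klrk1 was called higher (2.09) and Prf1, which encodes perforin, lower (-2.22), while Ncr1 (2.06), Klrb1c (1.93) and Gzmb (1.34) were higher without overlap and did not pass, and the B cell marker Ms4a1 was called higher (4.18). Their part in the GTPase result was not tested.

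**Figure D3:**
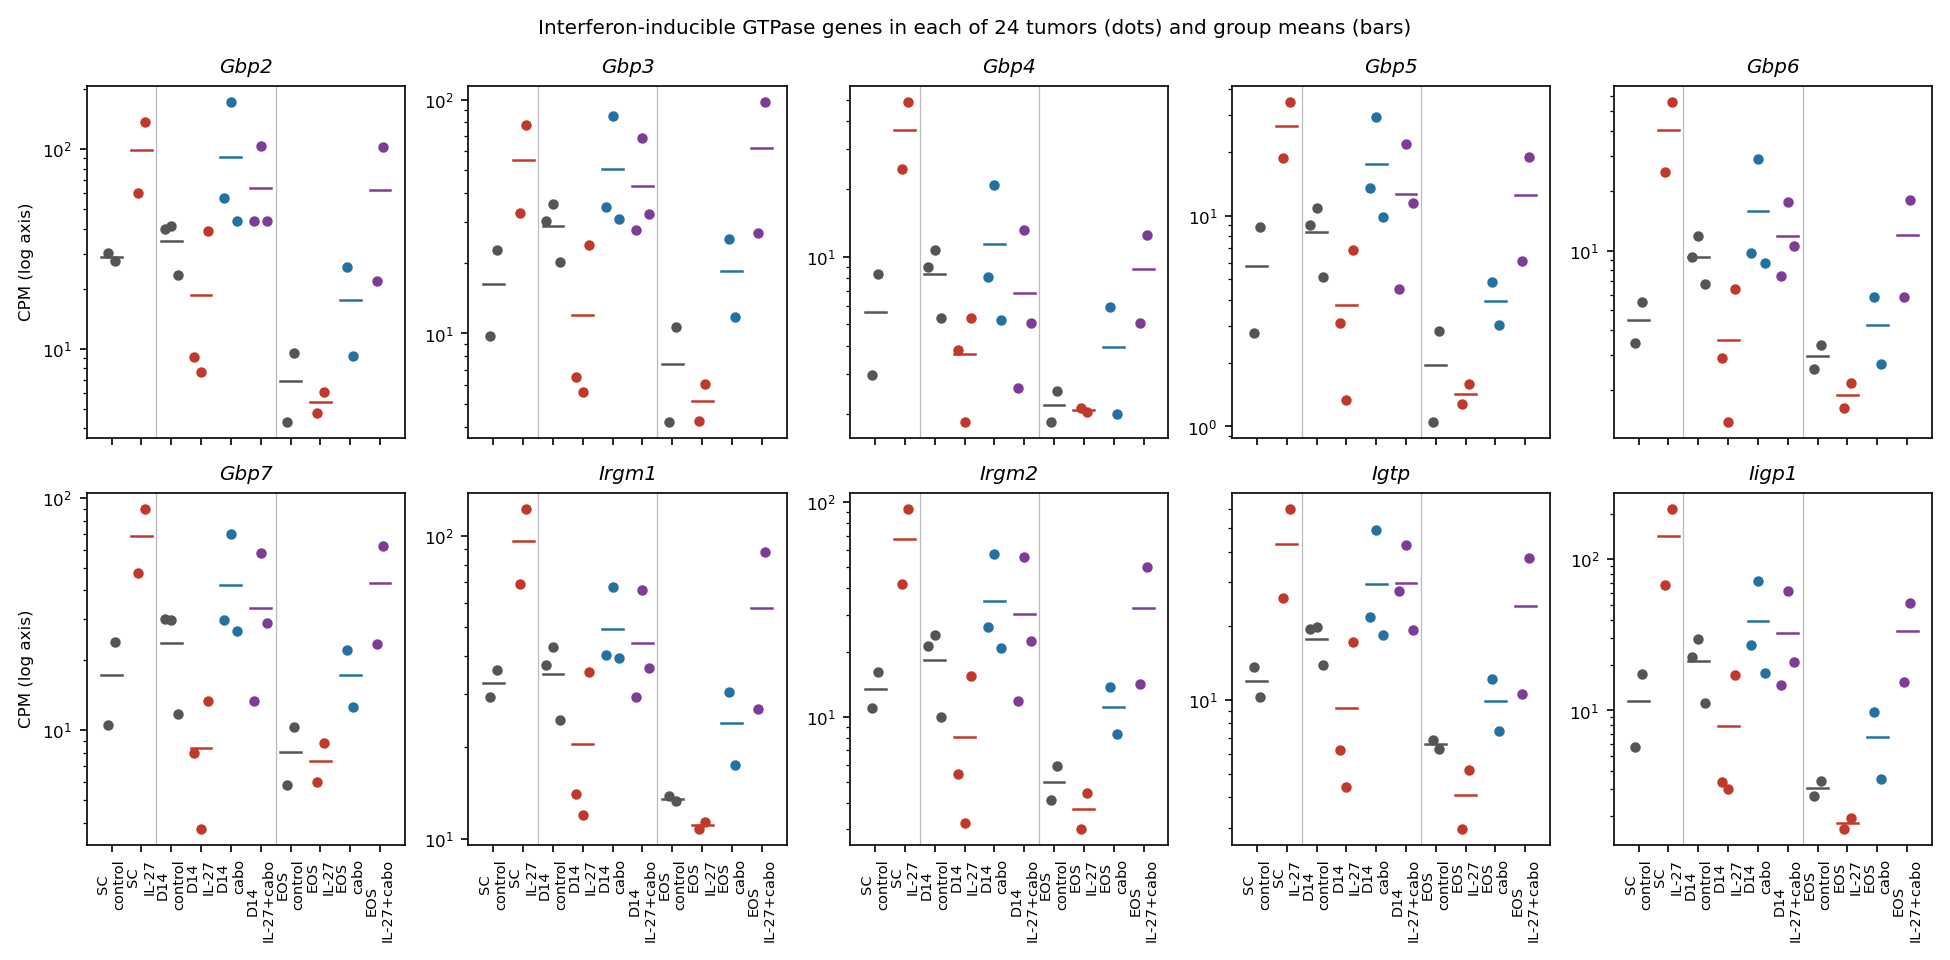
CPM of each GTPase gene (log axis) in each of the 24 tumors (dots) with the group mean (bars), by group, in gray for control, red for IL-27, blue for cabo and purple for IL-27+cabo. In the SC tumors both red dots lie above both gray dots in every panel, and at EOS both purple dots do.

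On day 14 in bone, the IL-27 tumors did not show this rise. Gbp2 was 39.7, 41.1 and 23.3 CPM in control tumors (mice 3, 5 and 7) and 9.07, 7.68 and 38.9 CPM in IL-27 tumors (mice 4, 6 and 8). Iigp1 was 22.6, 29.9 and 11.1 CPM in the controls and 3.36, 3.01 and 17.2 CPM in the IL-27 tumors. Gbp4 was 8.97, 10.7 and 5.34 CPM in the controls and 3.84, 1.84 and 5.32 CPM in the IL-27 tumors. Mice 4 and 6 lay below every control in all 10 genes, while mouse 8 lay within the range of the controls in all but Gbp4 and Gbp6. All 10 log2 fold changes were below 0, from -0.78 ± 0.42 for Irgm1 to -1.52 ± 0.50 for Gbp7, with a median of -1.20 against 0.02 for all genes. None passed adjustment in edgeR (0% of 18519 genes did) or in DESeq2, and 4 (Gbp3, Gbp4, Gbp6 and Gbp7) were lower at an unadjusted p under 0.05, compared with 1.85% of all genes. The groups did not overlap for Gbp4 and Gbp6 alone, compared with 4.43% of genes in that direction. Without mouse 8 the median was -2.04, and with the level of skeletal muscle markers as a covariate it was -1.96. Those markers summed to 25.6 to 1867 CPM in the IL-27 tumors, with the highest value in mouse 8, and 5.31 to 129 CPM in the controls. T cell markers summed to 9.0 to 63.9 CPM in the IL-27 tumors and 63.0 to 65.7 CPM in the controls. NK cell markers (11.9 to 29.5 against 30.1 to 49.4 CPM) and B cell markers (0.31 to 1.62 against 1.91 to 3.61 CPM) had sums below the controls without overlap, and none of their genes passed. Their part in the result was not tested.

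The IL-27 effect on the GTPases was then compared between the SC and the D14 intratibial tumors in a single fit of the 10 tumors, a test added after the values were seen. It differed for 9 of the 10 genes, all but Gbp2, with log2 differences from 2.36 for Irgm1 to 5.08 for Iigp1 and a median of 3.46, compared with 5.51% of all genes called in that direction. Without SC control tumor 1 it differed for 2 genes (1.74% of all genes), without SC IL-27 tumor 2 for 4 (2.03%) and with the GC content and length trend removed for 5 (2.46%). The models differ in site, cells, days, treatment schedule and the prefix of the sample labels, which cannot be told apart.

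Cabo alone on day 14 went with somewhat higher GTPase levels, within the spread of the tumors. Gbp2 was 56.6, 172 and 43.9 CPM in cabo tumors (mice 21, 25 and 27), all above the 3 controls. Gbp5 was 13.5, 29.3 and 9.83 CPM in the cabo tumors and 9.04, 10.9 and 5.11 CPM in the controls, so the groups overlapped. Gbp2 alone of the 10 did not overlap, a pattern found for 14.2% of genes. Log2 fold changes were above 0 for all 10 genes, from 0.43 ± 0.49 for Gbp4 to 1.38 ± 0.50 for Gbp2, with a median of 0.81 against -0.01 for all genes.

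None of the 10 passed adjustment in edgeR (adjusted p from 0.20 to 0.68, against 1.2% of all genes called higher) or in DESeq2, and Gbp2 and Gbp5 were higher at an unadjusted p under 0.05, compared with 9.64% of genes. The median fell to 0.18 without mouse 25 and to 0.037 with the level of skeletal muscle markers as a covariate. Those markers summed to 990 to 1550 CPM in the cabo tumors and 5.31 to 129 CPM in the controls. The groups did not overlap, so the fit with that covariate cannot separate cabo from muscle content. Of 8 endothelial markers 4 were called lower with cabo, namely Cldn5 (log2 fold change -2.80), Emcn (-2.70), Tie1 (-1.81) and Kdr (-1.56), and their sum was 138 to 151 CPM against 189 to 297 CPM. Their part in the result was not tested.

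These GTPase levels were measured in tumors with a lower sum of T cell markers than the controls, although the CD8 genes were higher. The 8 T cell markers summed to 26.5, 24.1 and 17.4 CPM in the D14 cabo tumors and 65.7, 63.0 and 64.3 CPM in the D14 controls, and 5 of the 8 were called lower. Cd8a (log2 fold change 2.62 ± 0.63) and Cd8b1 (2.02 ± 0.55) were higher without overlap and at an unadjusted p under 0.05, and did not pass. Ifng was 0.29, 0.43 and 0.17 CPM with cabo and 0.83, 1.13 and 0.77 CPM in the controls, with a log2 fold change of -1.62 ± 0.44 (adjusted p = 0.12, edgeR) that did not pass. The kinase Jak2 had a log2 fold change of 0.45 ± 0.10 (adjusted p = 0.067). Irf1 (0.31 ± 0.20), Jak1 (0.17 ± 0.08), Ifngr1 (0.20 ± 0.18) and Ifngr2 (0.05 ± 0.11) did not pass either.

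**Figure D4:**
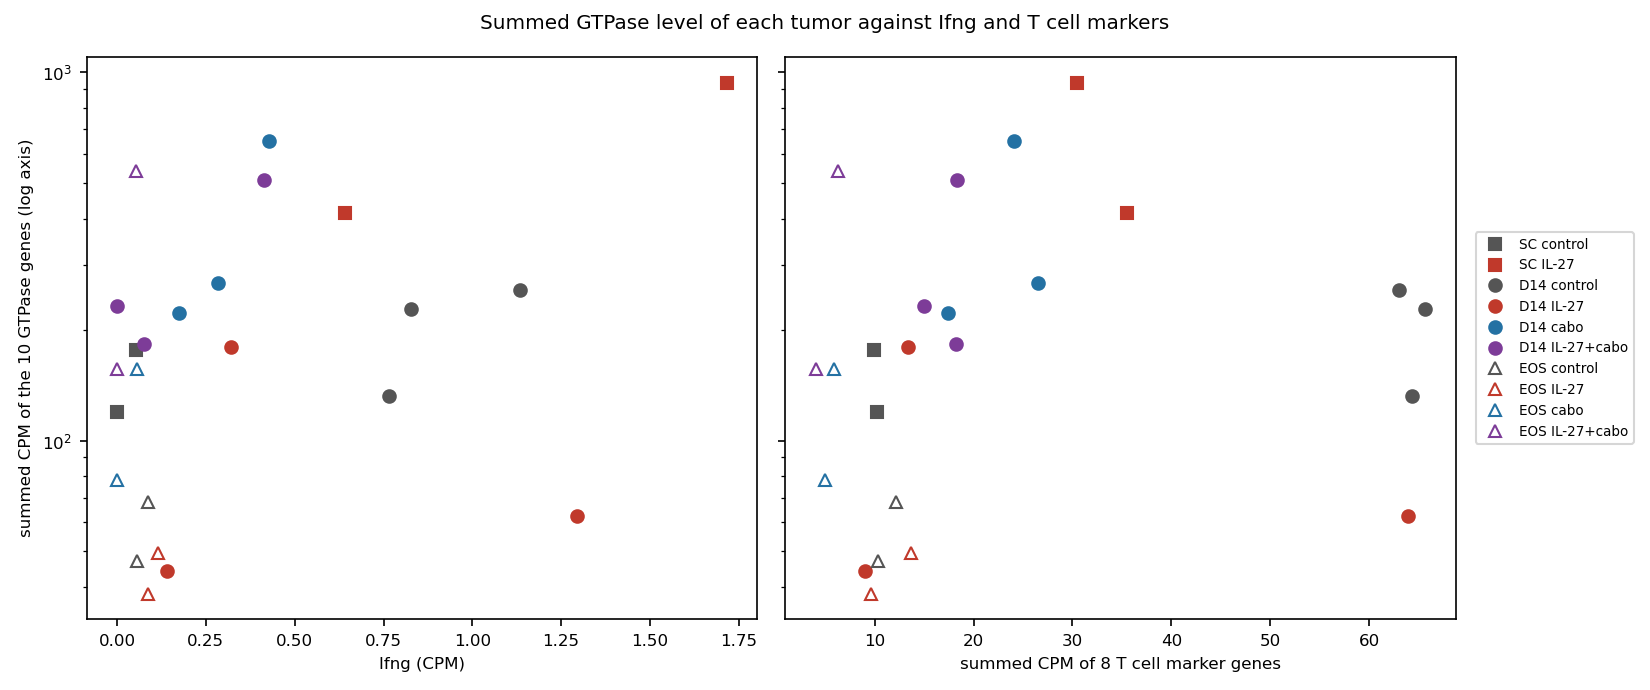
Summed CPM of the 10 GTPase genes (log axis) of each of 24 tumors against Ifng in CPM (left) and against the summed CPM of 8 T cell markers (right), with squares for SC, filled circles for D14 and open triangles for EOS. The D14 controls sit near 63 to 66 CPM of T cell markers with 132 to 257 CPM of GTPases, while mouse 28 holds 539 CPM of GTPases at 6.29 CPM of T cell markers.

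The D14 IL-27+cabo tumors resembled the cabo tumors more than the IL-27 tumors in their values. Gbp2 was 43.7, 104 and 43.9 CPM (mice 20, 22 and 24) and Iigp1 was 14.6, 61.6 and 20.9 CPM. Mouse 22 was the high tumor in every gene. Against control, 9 of 10 log2 fold changes were above 0 and Gbp4 had -0.27 ± 0.60, with a median of 0.60 that became -0.059 without mouse 22, 0.33 without control mouse 7, 0.84 without mouse 20 and 0.16 with the level of skeletal muscle markers as a covariate. None passed adjustment in edgeR (0.0213% of genes were called higher) or DESeq2, none reached an unadjusted p under 0.05 (4.23% of genes did, higher), and Gbp2 alone did not overlap with control (7.39% of genes). Skeletal muscle markers summed to 1288 to 4617 CPM in the IL-27+cabo tumors and 5.31 to 129 CPM in the controls. The groups did not overlap, so the fit with that covariate cannot separate the treatment from muscle content. Tumor epithelium markers summed to 139 to 339 CPM against 97.1 to 125 CPM. T cell markers summed to 15.0 to 18.3 CPM against 63.0 to 65.7 CPM, and Cd3e, a chain of the T cell receptor complex, was called lower (log2 fold change -2.67, adjusted p = 0.041, edgeR). Of these 8 markers 6 lay below the controls without overlap, whereas Cd8a (1.95 ± 0.81) and Cd8b1 (2.17 ± 0.65) lay above them without overlap and did not pass. Endothelial markers summed to 82.8 to 139.8 CPM against 189 to 297 CPM in the controls and 176 to 243 CPM in the IL-27 tumors. Of the 8, 6 (Emcn, Kdr, Tie1, Cldn5, Cdh5 and Pecam1) lay below the controls without overlap and 5 of these, all but Cdh5, lay below the IL-27 tumors without overlap, and none passed. Their part in these results was not tested.

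Against cabo, the median log2 fold change of IL-27+cabo was -0.29, with 9 of 10 genes lower, and 0 passed adjustment in edgeR (0% of genes) or DESeq2. None reached an unadjusted p under 0.05 (0.289% of genes did, lower) and none was without overlap (6.89% of genes). The median ran from -0.99 without mouse 22 to 0.36 without mouse 25 and moved by more than 1.5 times whichever of the 6 tumors was left out. Against IL-27, all 10 genes were higher, from 0.92 ± 0.67 for Gbp4 to 2.04 ± 0.85 for Iigp1, with a median of 1.77 that fell to 1.03 with the skeletal muscle covariate. Here 7 of 10 had an unadjusted p under 0.05, compared with 3.17% of genes in that direction. For 5 (Gbp2, Gbp3, Gbp6, Gbp7 and Igtp) the groups did not overlap, compared with 6.43% of genes. None passed adjustment in edgeR (0% of genes) or DESeq2.

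The test of whether IL-27 and cabo together departed from the sum of their separate effects gave log2 differences above 0 for all 10 genes, with a median of 0.96. The median was 0.25 without mouse 22, 0.61 without mouse 6, 1.53 without mouse 25 and 1.70 without mouse 8. None passed adjustment in edgeR (0% of genes) or DESeq2 or reached an unadjusted p under 0.05 (1.4% of genes did in that direction). These D14 comparisons share tumors, so they are not separate evidence.

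At EOS the control tumors held little GTPase RNA. Gbp2 was 4.29 and 9.55 CPM in controls (mice 13 and 9) and 4.77 and 6.10 CPM in IL-27 tumors (mice 10 and 12). It was 25.8 and 9.25 CPM in cabo tumors (mice 19 and 23) and 21.9 and 103 CPM in IL-27+cabo tumors (mice 16 and 28). Iigp1 was 2.70 and 3.40 CPM in controls, 1.65 and 1.95 CPM with IL-27, 9.78 and 3.53 CPM with cabo and 15.3 and 51.6 CPM with IL-27+cabo. The order IL-27+cabo, cabo, control, IL-27 held for the group means of all 10 genes, but neighbors in this order overlapped in their tumors for many of them. Summed over the 10 genes, mouse 16, the lower IL-27+cabo tumor, had 156.3 CPM and mouse 19, the higher cabo tumor, had 156.1 CPM.

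Compared with EOS control, IL-27+cabo tumors had all 10 genes higher and without overlap, a pattern found for 19.8% of 20026 genes. Gbp3 was 4.18 and 10.7 CPM in the controls and 26.9 and 97.6 CPM in the IL-27+cabo tumors. Irgm1 was 13.8 and 13.3 CPM in the controls and 26.7 and 88.3 CPM in the IL-27+cabo tumors, with mouse 28 well above mouse 16 in both genes. Among the guanylate-binding proteins, log2 fold changes ran from 2.03 ± 0.60 for Gbp4 to 3.18 ± 0.81 for Gbp2, which is 9.08-fold. Among the immunity-related GTPases they were 3.47 ± 0.67 for Iigp1 (11.1-fold), 2.70 ± 0.59 for Irgm2, 2.10 ± 0.52 for Irgm1 and 1.89 ± 0.58 for Igtp. The median was 2.56 against -0.003 for all genes.

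All 10 had an unadjusted p under 0.05, compared with 7.36% of genes in that direction, but none passed adjustment in edgeR (adjusted p from 0.18 to 0.24, and 0% of genes were called). DESeq2 called all 10, compared with 2.32% of all genes called higher by it. Without mouse 28 the median was 1.54. Skeletal muscle markers summed to 81.0 to 196 CPM in these tumors and 5.54 to 10.9 CPM in controls, and T cell markers to 4.02 to 6.29 CPM against 10.3 to 12.2 CPM. NK cell markers summed to 26.1 to 29.4 CPM against 14.5 to 25.1 CPM. Of these, Klrk1 (log2 fold change 2.32 ± 0.93), Klrb1c (1.25 ± 1.04) and Gzmb (1.01 ± 0.61) were higher without overlap, Prf1 (-0.43 ± 0.61) was lower with overlap, and none passed. Macrophage markers summed to 647 to 1105 CPM against 356 to 578 CPM, with 5 of 8 (Adgre1, C1qa, C1qb, C1qc and Mrc1) higher without overlap and Cd14 lower. Endothelial markers summed to 278 to 371 CPM against 159 to 257 CPM, with Tek, Kdr, Emcn and Tie1 higher without overlap. Their part in the result was not tested.

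The same direction was seen in related lists at EOS. Of 14 other family genes, 11 had an unadjusted p under 0.05 and higher levels with IL-27+cabo, and 11 of 13 type I interferon targets did so, with median log2 fold changes of 2.32 and 2.46. Of 23 interferon-gamma pathway genes, 7 did so, with a median of 0.98. None of these passed adjustment. Ifng was too low to be tested at EOS, with 0 to 8 counts in every tumor.

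Cabo alone at EOS had all 10 genes higher than control, with a median of 1.07 on the log2 scale and a range from 0.54 ± 0.56 for Gbp6 to 1.35 ± 0.76 for Gbp2. The median was 0.41 without mouse 19. Skeletal muscle markers summed to 104 to 781 CPM in these tumors and 5.54 to 10.9 CPM in controls. Endothelial markers summed to 288 to 334 CPM against 159 to 257 CPM, macrophage markers to 650 to 659 CPM against 356 to 578 CPM, and T cell markers to 4.95 to 5.84 CPM against 10.3 to 12.2 CPM. Tek, Cldn5, Emcn and Tie1 of the endothelium were higher without overlap, and the part of these markers in the result was not tested. For 7 of 10 the groups did not overlap, compared with 20.8% of genes, and 0 passed adjustment in edgeR (0% of genes) or DESeq2 or reached an unadjusted p under 0.05 (4.54% of genes did). IL-27 alone at EOS had all 10 lower, with a median of -0.44 that became 0.027 without mouse 9, -0.28 without mouse 10, -0.67 without mouse 12 and -0.76 without mouse 13. For 4 of 10 the groups did not overlap in that direction, compared with 16.5% of genes, and 0 passed adjustment in edgeR (0% of genes) or DESeq2 or reached an unadjusted p under 0.05 (1.68% of genes did). Here skeletal muscle markers summed to 7.74 to 14.6 CPM against 5.54 to 10.9 CPM in controls. NK cell (10.1 to 10.3 against 14.5 to 25.1 CPM) and marrow myeloid markers (0.73 to 0.78 against 1.42 to 7.12 CPM) were lower. B cell markers were higher (2.19 to 2.25 against 0.39 to 0.75 CPM), and the part of these markers was not tested.

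Control tumors held less GTPase RNA at EOS than on day 14 in each of the 10 genes. Gbp2 went from 23.3 to 41.1 CPM on D14 to 4.29 to 9.55 CPM, and Irgm1 from 24.7 to 43.0 CPM to 13.3 to 13.8 CPM. Both EOS controls lay below all 3 D14 controls for each of the 10 genes, compared with 16.6% of 19292 genes. Log2 fold changes ran from -1.39 ± 0.26 for Irgm1 to -2.82 ± 0.44 for Iigp1, with a median of -1.93 against -0.004 for all genes. All 10 had an unadjusted p under 0.05, compared with 7.22% of genes, but none passed adjustment in edgeR (adjusted p from 0.10 to 0.25, with 0.104% of genes called lower), while DESeq2 called all 10, compared with 2.79% of genes called lower by it.

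T cell markers were lower at EOS in the same comparison, from 63.0 to 65.7 CPM to 10.3 to 12.2 CPM, and 5 of 8 were called lower. Of 8 macrophage markers 4 were lower without overlap and 0 were called. NK cell markers summed to 14.5 to 25.1 CPM at EOS against 30.1 to 49.4 CPM on D14, and B cell markers to 0.39 to 0.75 CPM against 1.91 to 3.61 CPM. Ifng had a log2 fold change of -3.66 ± 0.59 (adjusted p = 0.11, edgeR) and Irf1 of -0.49 ± 0.21, and neither passed. Their part in the GTPase levels was not tested.

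Between day 14 and EOS, with oral dosing ended by EOS, the other treatments showed unequal values. In cabo tumors all 10 genes had log2 fold changes below 0, with a median of -1.62. Of these, 9 had an unadjusted p under 0.05 (9.53% of genes) and 9 did not overlap (18.5% of genes), while 0 passed adjustment in edgeR (1.14% of genes called lower) and DESeq2 called 1 (5.65% of genes called lower by it). The median was -1.05 without mouse 25. In the same cabo comparison, all 8 T cell markers had log2 fold changes below 0 and Cd3e (-3.32) and Trac (-2.38) were called lower. Every macrophage marker lay lower at EOS without overlap, from -0.22 for Cd68 to -0.88 for Mrc1, and Mrc1 alone was called. Skeletal muscle markers summed to 104 to 781 CPM at EOS and 990 to 1550 CPM on D14. Of 8 endothelial markers 5 were called higher at EOS, namely Cldn5 (3.94), Emcn (3.31), Tie1 (2.31), Kdr and Pecam1. Their part was not tested. In IL-27 tumors the median was -1.14, or -0.33 without mouse 8. Of the 10 genes, 2 had an unadjusted p under 0.05 (3.08% of genes) and 3 did not overlap (11.7% of genes), and 0 passed in edgeR (0% of genes) or DESeq2. In IL-27+cabo tumors the median was 0.07, with 6 genes higher and 4 lower. There 0 passed in edgeR (0% of genes) or DESeq2, 0 reached an unadjusted p under 0.05 (1.04% of genes did, higher) and 0 were without overlap (11.2% of genes). The median ran from -1.02 without mouse 28 to 0.82 without mouse 22 and moved by more than 1.5 times whichever of the 5 tumors was left out. In that comparison 12 of 12 skeletal muscle markers and 6 of 8 T cell markers were lower at EOS without overlap and 7 of 8 endothelial markers were higher, and their part was not tested.

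The difference in treatment effect between EOS and D14 was tested directly. For IL-27+cabo against control, the log2 difference was above 0 for all 10 genes, with a median of 2.06, and 4 had an unadjusted p under 0.05, compared with 3.88% of genes in that direction. None passed adjustment in edgeR (adjusted p from 0.49 to 0.64, with 0.0696% of genes called higher) or DESeq2, and the median was 0.93 without mouse 28. For IL-27 the median log2 difference was 0.74, or 0.35 without mouse 6, 1.2 without mouse 9 and 1.60 without mouse 8. For cabo it was 0.25, ran from -0.48 without mouse 19 to 0.81 without mouse 25, and moved by more than 1.5 times whichever of the 10 tumors was left out. For both, 0 genes of the 10 were called in edgeR (0% and 0.0788% of genes called higher) or DESeq2 and 0 reached an unadjusted p under 0.05 (1.01% and 2.05% of genes, higher). In these fits the endothelial genes Emcn and Kdr were called higher for IL-27+cabo (log2 differences of 3.14 and 3.09), and Emcn for cabo (3.60), and their part was not tested.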

How the data were processed

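Poly(A) RNA of 24 tumors was sequenced as paired ends from stranded libraries, and the authors deposited 1 table of raw counts per Ensembl gene. The labels name FastQC, HISAT2, StringTie and DESeq2, and a human build, GRCh38, although the identifiers are mouse. The counting program is not given in the sources used here. Of 55401 identifiers, 55141 were in GENCODE M21. Genes passing filterByExpr were scaled by TMM and tested with edgeR 4.0.16 (R 4.3.3, quasi-likelihood F test, Benjamini-Hochberg, threshold 0.05), with the compared groups alone in each fit, except that the 4 D14 groups were fitted together for the interaction, the 4 EOS groups together for EOS treatments and the 8 intratibial groups together for EOS minus D14. DESeq2 1.42.0, other scalings and filters, removal of GC content and length trends (splines of 5 degrees of freedom), the study's own limits, a muscle marker covariate on day 14, counts divided by 4 and leaving out each tumor were alternatives. The fit function was tested on simulated data. The labels do not say whether the SC tumors of a group came from separate mice, so their p-values may measure technical spread. No 2 replicates agreed within sampling noise.

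Members and lists were chosen with earlier results of these data known. Named genes were the 10 members, the interferon-gamma ligand, receptors, kinases and Irf1, genes of the lists called where members were called, and the 5 genes most like the members, of which 1 is not reported here.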

Additional observations from a re-analysis of the deposited data

Results flagged for a closer look

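The effect of IL-27 on the GTPases differed between the SC and the D14 intratibial tumors in the test of the difference itself (edgeR, 10 tumors, adjusted over all genes). The log2 difference, SC minus D14, was 5.08 for Iigp1, 4.58 for Gbp6, 3.91 for Gbp4, 3.54 for Gbp7, 3.54 for Irgm2, 3.37 for Gbp5, 3.06 for Gbp3, 2.82 for Igtp and 2.36 for Irgm1. In the SC model both IL-27 tumors lay above both controls in each of these genes, and on day 14 mice 4 and 6 lay below the 3 controls. Mouse 8, the other D14 IL-27 tumor, lay within the range of the controls in all but Gbp4 and Gbp6. With the GC content and length trend removed, 5 of the 10 genes differed (2.46% of all genes, in that direction). Without SC control tumor 1, 2 differed (1.74% of genes), and without SC IL-27 tumor 2, 4 did (2.03%).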

How the results depend on the processing

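None of the 8 members called in the SC tumors changed direction. The median log2 change over the members changed sign in 5 comparisons when 1 tumor was left out: to 0.36 and 0.032 in D14 IL-27+cabo against cabo (mice 25 and 20), -0.059 in D14 IL-27+cabo against control (mouse 22), 0.027 in EOS IL-27 against control (mouse 9), -1.02, -0.25 and -0.095 in IL-27+cabo EOS against D14 (mice 28, 20 and 24) and -0.48 to -0.032 for the cabo effect at EOS minus D14 (mice 19, 27, 5 and 13). DESeq2 called 10 members in EOS IL-27+cabo against control, 10 in control EOS against D14 and 1 in cabo EOS against D14, where edgeR called 0, with 2.32%, 2.79% and 5.65% of all genes called in that direction. Without a filter on low counts, 4 members were called in the SC tumors (1.07% of all genes, higher), and with the GC content and length trend removed, 5 were called there (2.68%) and 5 for the SC minus D14 difference (2.46%). Under the study's limits (a log2 fold change past 1.5 and an unadjusted p under 0.05), 1 member passed in D14 IL-27 against control (0.308% of all genes in that direction), 7 in D14 IL-27+cabo against IL-27 (1.78%), 10 in EOS IL-27+cabo against control (2.33%), 8 in control (2.74%), 2 in IL-27 (1.34%) and 6 in cabo tumors (2.09%) for EOS against D14, and 4 for the IL-27+cabo effect at EOS minus D14 (2.05%). Leaving out 1 tumor gave 0 to 10 called members in the SC tumors, where 0.499% to 8.66% of genes were called higher, and 2 to 10 for the SC minus D14 difference (1.74% to 11.3%). Every other comparison had 0 called members whichever tumor was left out. The cause was not tested, beyond the smaller number of tumors where 1 was left out.

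SC tumors of the 2 groups share replicate numbers, but the deviations of same-numbered tumors had a correlation of 0.031 over 19360 genes, so the numbers were not taken to pair them. A fit with the replicate block called 10 members and 4248 genes, against 8 and 3880 without it, and 5.01% of genes were called higher with it. With the block and the GC correction together it called 9 members and 4.52% of genes higher.

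With 2 or 3 tumors a group, an exact permutation test cannot go below p = 0.333 for 2 against 2 or 0.1 for 3 against 3, so calls lean on the spread shared across genes. Depth was not limiting for the members, whereas Ifng rested on 0 to 133 counts.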

Other observations

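The D14 IL-27 tumor of mouse 4, chosen after its values were seen, combined T cell transcripts at the level of the controls with GTPase levels far below them. Its T cell markers summed to 63.9 CPM and its Ifng level was 1.29 CPM, compared with 63.0 to 65.7 CPM and 0.77 to 1.13 CPM in the 3 D14 controls. Its 10 GTPase genes summed to 62.5 CPM, compared with 132 to 257 CPM in those controls. The tumors of mice 16 and 28 (EOS IL-27+cabo) showed the opposite pairing, with T cell markers at 4.02 and 6.29 CPM, 0 and 4 Ifng counts, and GTPase sums of 156 and 539 CPM. Macrophage markers summed to 396 CPM in mouse 4, 534 to 1189 CPM in the D14 controls, 647 to 1105 CPM in the tumors of mice 16 and 28, and 356 to 578 CPM in the EOS controls. These are single tumors, and no test was made.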
